A study of Mus musculus with 9 samples.

Results

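The genes Gfap, Reln, Ngfr, Bdnf, Ntrk2, Ntf3, Ncam1, Nes and Syp, known from nerve and glia, were followed through 3 kinds of liver mesenchymal cells. They were taken by name, as the neural-type genes that have been used to describe hepatic stellate cells, and are 9 of the 24453 genes measured. The measurement was RNA sequencing of 9 libraries, 3 in each of 3 groups, every library a pool of cells of 3 to 5 mice. Hepatic stellate cells (HSC), the vitamin A-storing pericytes of the liver sinusoid, came from untreated wild-type livers by density gradient separation. CCl4-fib were fibroblasts from mice that carry green fluorescent protein (GFP) under a collagen alpha 2(I) promoter, Col1a2-GFP Tg, after carbon tetrachloride, a hepatotoxin, at 1 ml/kg into the peritoneum 2 times a week for 8 weeks. NASH-fib were fibroblasts from male mice that lack the melanocortin 4 receptor (MC4R-KO) and carry the same transgene, fed a Western diet for 20 weeks from 8 weeks of age as a model of non-alcoholic steatohepatitis. Both kinds of fibroblasts were sorted as CD45-negative, GFP-positive live cells. The fibroblasts were thus sorted on the activity of this promoter, whereas the HSC were not, so that fibrosis and isolation method cannot be told apart in a comparison with HSC. NASH-fib and CCl4-fib differ in Mc4r genotype, diet, agent and duration together.

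Neurotrophins are secreted growth factors that bind the Trk receptor tyrosine kinases and the p75 receptor, and in nerve they set the survival and branching of neurons. Reelin is a large secreted glycoprotein that guides migrating neurons through the receptors Vldlr and Lrp8. In the rodent liver stellate cells are known to hold GFAP, p75, NCAM, nestin and reelin, features shared with neural cells, although the lineage of these cells is mesodermal.

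Values are the deposited ones, reads on the exons of a gene multiplied by 1 factor per library so that all libraries have the same sum. The reads on genes ran from 3071070 to 5634273 per library, and 3 reads, taken as the floor of detection, corresponded to a value between 2.38 and 4.37. The second HSC and the first NASH-fib library (HSC replicate 2 and NASH-fib replicate 1) had the fewest reads and were the least like the other libraries of their groups (highest correlation with any other library 0.881 and 0.815 over 13651 tested genes, against 0.908 to 0.937 for the rest), and calls of the 9 genes that change without them are named. They also held the lowest Ntf3, Nes and Syp values of their groups. The genes were tested with limma on log2(value + 1), with Benjamini-Hochberg adjustment over those 13651 genes. A gene is said to have risen or fallen only when called, which took an adjusted p under 0.05 together with a log2 fold change of 1 or more in either direction. Of the 9 genes 8 passed the filter on low counts and Gfap did not. P-values measure the spread between pools. In bulk RNA, fewer cells of a type and less RNA per cell cannot be told apart.

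The 9 genes did not move together. Against HSC, Reln and Ngfr fell and Bdnf, Ntrk2 and Ncam1 rose in both kinds of fibroblasts, while Ntf3, Nes and Syp did not pass the test in either. In NASH-fib 3 of the genes were called higher, against 8.23% of all tested genes, and 2 lower, against 4.3%. In CCl4-fib it was also 3 higher and 2 lower, against 16.2% and 11.7% of tested genes. These 2 comparisons share the HSC libraries. The libraries of the groups lay fully apart for 5 of the 8 tested genes in NASH-fib against HSC and for 4 in CCl4-fib against HSC, which was the case for 24.4% and 48.6% of all tested genes. Bdnf and Ntrk2 passed the filter only through the fibroblasts, so that the number called among the genes that passed is not evidence of its own. Libraries with the same date in the labels were 1 of each group for 11-3, 1 HSC and 1 CCl4-fib for 11-4, and 1 CCl4-fib and 2 NASH-fib for 11-7. Within these dates Reln, Ngfr, Ntrk2 and Ncam1 kept their direction against HSC, and so did Bdnf in NASH-fib, by 5.37 on the log2 scale. In CCl4-fib the Bdnf difference was -0.13 within 11-3 and 5.23 within 11-4.

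**Figure D1:**
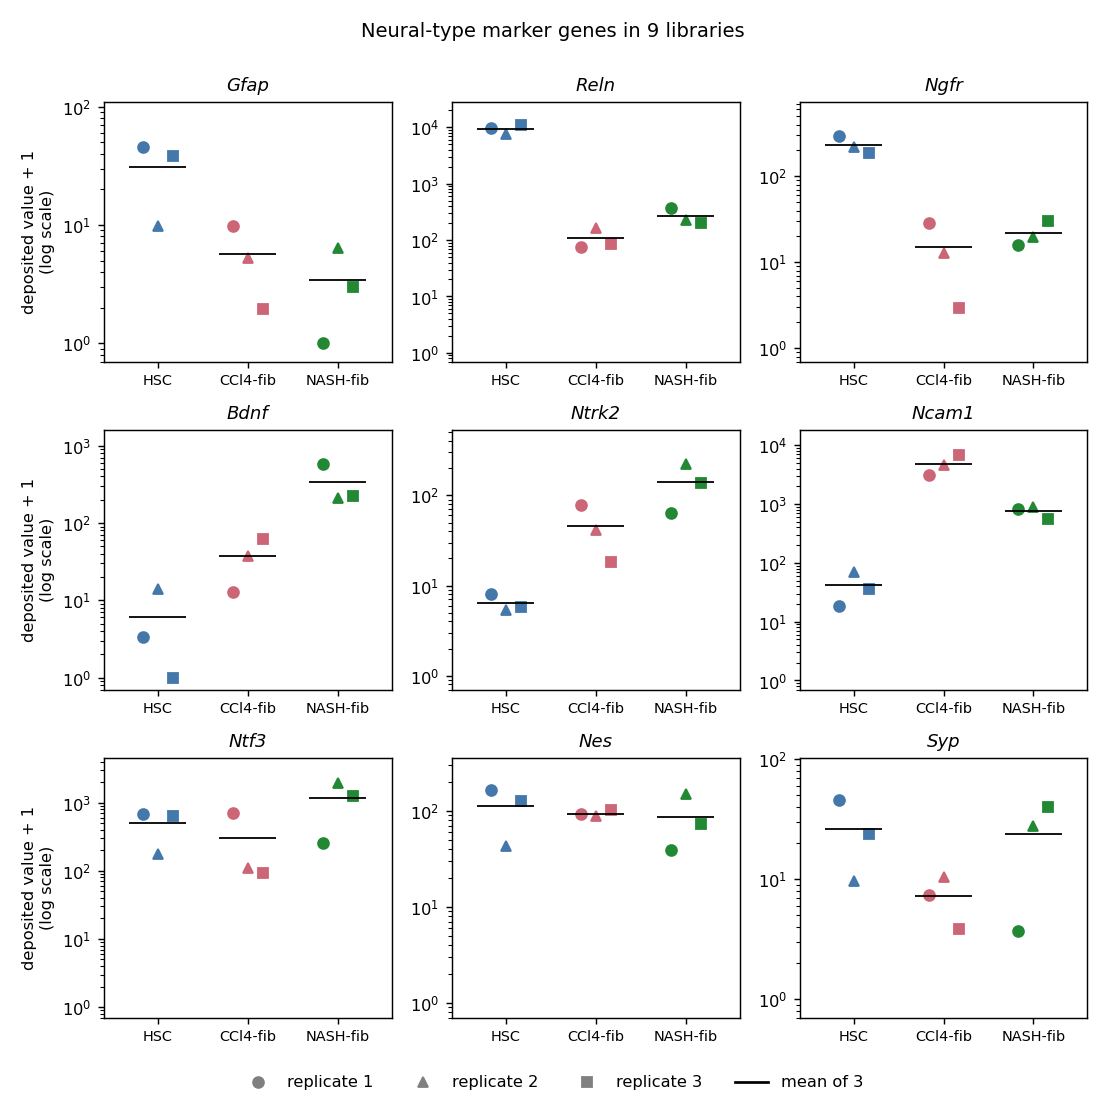
Deposited value + 1 on a log axis for each of the 9 genes, with 1 point per library (shape gives the replicate number, color the group) and a line at the mean of 3. Reln and Ngfr sit higher in all 3 HSC libraries than in any fibroblast library, and Ncam1 is highest in CCl4-fib.

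The name of the gene set did not describe the HSC libraries gene by gene. Per kilobase of exon, the mean value in HSC was 817 for Reln, 372 for Ntf3, 68.0 for Ngfr, 18.2 for Nes, 11.1 for Gfap, 10.2 for Syp, 6.25 for Ncam1, 1.25 for Bdnf and 0.768 for Ntrk2. The libraries of Reln, Ntf3, Ngfr and Nes did not overlap from one gene to the next, whereas from Nes down each gene overlapped its neighbor in this order. Ncam1, Bdnf and Ntrk2 thus stood at the low end in the cells that the set is named for. Per kilobase in NASH-fib the order began with Ntf3 at 868, Ncam1 at 116 and Bdnf at 82.2, with Ncam1 and Bdnf overlapping. In CCl4-fib it began with Ncam1 at 743 and Ntf3 at 224, which overlapped. Gfap was last in both, at 0.900 in NASH-fib and 1.72 in CCl4-fib.

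Gfap codes for the intermediate filament of astrocytes and is a classical stellate cell marker of rat liver. It was read at a low level even in HSC, with values of 44.4, 8.74 and 37.1 in replicates 1 to 3, from 38, 6 and 31 reads. In CCl4-fib the values were 8.73, 4.25 and 0.95, and in NASH-fib 0, 5.34 and 1.97. The lowest HSC library and the highest CCl4-fib library had nearly the same value, from 6 and 11 reads, while all 3 NASH-fib libraries were below all HSC, the closest pair both resting on 6 reads. Gfap was too low for the test across all genes. The mean log2(value + 1) was lower by 3.27 in NASH-fib and by 2.47 in CCl4-fib than in HSC, each with an exact two-sided permutation p of 0.1, the smallest that 3 against 3 can give. NASH-fib and CCl4-fib overlapped (exact permutation p = 0.5). Without HSC replicate 2 Gfap passed the filter and was called lower in both, with log2 fold changes of -3.97 (adjusted p = 0.0305) and -3.16 (adjusted p = 0.0496). It also passed the filter without any 1 of the fibroblast libraries, and was then called in NASH-fib without CCl4-fib replicate 3 (adjusted p = 0.0467) or NASH-fib replicate 2 (adjusted p = 0.0381). Without NASH-fib replicate 1 it was called in CCl4-fib (adjusted p = 0.0450) and stood at -2.56 in NASH-fib (adjusted p = 0.108). It was called in neither when NASH-fib replicate 3 or the first or second CCl4-fib library was left out, nor with no filter.

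Reln, which codes for reelin, was the most abundant of the 9 genes in HSC. Its values were 9782, 7670 and 11068 in HSC, 75.4, 166 and 83.0 in CCl4-fib, with 377, 225 and 200.5 in NASH-fib. Every fibroblast library was far below every HSC library, and all NASH-fib libraries were above all CCl4-fib libraries. The mean was 87.96 times lower in CCl4-fib than in HSC, a log2 fold change of -6.52 ± 0.40 (SE, n = 3 per group, limma adjusted p = 8.15e-06). It was 35.5 times lower in NASH-fib, a log2 fold change of -5.19 ± 0.40 (limma adjusted p = 3.35e-05). Between the fibroblasts the mean was 2.47 times higher in NASH-fib, which missed the threshold (log2 fold change 1.34 ± 0.40, limma adjusted p = 0.0573), and was past it with DESeq2, TMM scaling or the date in the labels as a term. Reln lies on chromosome 5 (mm10, 21884454 to 22344705, minus strand), and the annotation places opposite-strand genes Gm10475 and Gm16110 within it, whose reads an unstranded count cannot set apart where exons overlap.

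Ngfr, the p75 receptor that binds all neurotrophins, was the other gene that fell in both. Its values were 291, 216 and 187 in HSC, 27.8, 11.9 and 1.91 in CCl4-fib, with 14.95, 18.7 and 29.5 in NASH-fib. All HSC libraries were above all fibroblast libraries, whose ranges overlapped each other. The log2 fold change was -4.47 ± 0.75 in CCl4-fib (limma adjusted p = 0.00159) and -3.42 ± 0.75 in NASH-fib (limma adjusted p = 0.0118), mean values 16.7 and 11.0 times lower than in HSC. The call in NASH-fib was lost without HSC replicate 1 (adjusted p = 0.0543), with no filter (adjusted p = 0.0635) and with the date as a term (adjusted p = 0.301). The difference between the fibroblasts was 1.05 on the log2 scale (95% interval -0.61 to 2.70, limma adjusted p = 0.382).

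The sequences before the start sites of these 3 genes are shown because the mean values of the genes were lower in both fibroblasts than in HSC. They are the 250 bases upstream of the start of the counted RefSeq entry, on the strand of the gene, from RefSeq on GRCm38.p6 (the mm10 assembly), at chr11:102897201-102897450 (minus) for Gfap, chr5:22344706-22344955 (minus) for Reln and chr11:95587699-95587948 (minus) for Ngfr. Capitals mark matches on either strand to 6 motifs, the GC box GGGCGG, the E-box CANNTG, the AP-1 site TGANTCA, the homeodomain core TAATTA, the TATA box TATAAA and the CRE TGACGTCA. No 2 motif matches overlapped.
Gfap: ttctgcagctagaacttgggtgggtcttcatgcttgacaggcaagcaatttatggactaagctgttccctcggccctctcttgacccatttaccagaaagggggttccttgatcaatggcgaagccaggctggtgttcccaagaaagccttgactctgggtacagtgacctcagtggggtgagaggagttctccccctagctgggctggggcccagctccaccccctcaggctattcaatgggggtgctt
Reln: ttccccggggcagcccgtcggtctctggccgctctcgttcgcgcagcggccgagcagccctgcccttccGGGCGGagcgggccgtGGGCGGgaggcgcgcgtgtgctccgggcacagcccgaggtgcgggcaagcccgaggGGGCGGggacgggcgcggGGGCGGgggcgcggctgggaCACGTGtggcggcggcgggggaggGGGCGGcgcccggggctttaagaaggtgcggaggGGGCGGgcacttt
Ngfr: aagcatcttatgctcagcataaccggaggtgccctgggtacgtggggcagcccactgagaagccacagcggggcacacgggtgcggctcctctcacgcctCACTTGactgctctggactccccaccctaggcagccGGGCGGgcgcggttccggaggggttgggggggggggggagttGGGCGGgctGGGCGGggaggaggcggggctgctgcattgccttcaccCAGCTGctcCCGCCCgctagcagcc

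The Reln window held 6 GC boxes and 1 E-box and the Ngfr window 4 GC boxes and 2 E-boxes, while none of the 6 motifs was in the Gfap window. Of the 32817 promoter windows of the same length, 32.7% held a GC box and 66.2% an E-box. GC content was 80.0% in Reln, 70.4% in Ngfr and 55.6% in Gfap, against a median of 52.4% over all windows, and the CpG counts were 37, 16 and 2, against a median of 6. No motif was thus found in all 3 windows, and their base composition differed widely.

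Bdnf codes for brain-derived neurotrophic factor, a ligand of TrkB. It was close to absent from HSC, with values of 2.34, 13.1 and 0. In CCl4-fib it was 11.9, 36.6 and 62.0 and in NASH-fib 582, 212 and 222. The NASH-fib libraries were above all others, and the lowest CCl4-fib library lay below the highest HSC library. The log2 fold change against HSC was 6.39 ± 0.94 in NASH-fib (SE, n = 3 per group, limma adjusted p = 0.00123) and 3.11 ± 0.94 in CCl4-fib (limma adjusted p = 0.0323). The rise in CCl4-fib was lost with edgeR, with no filter, with the date as a term and without HSC replicate 1 (adjusted p = 0.0836), HSC replicate 3, CCl4-fib replicate 2 (adjusted p = 0.0986) or CCl4-fib replicate 3. NASH-fib exceeded CCl4-fib by 3.27 ± 0.94 on the log2 scale, 9.19 times in the means, which just missed the threshold (limma adjusted p = 0.0508). It passed with DESeq2 (adjusted p = 0.00104), with edgeR, TMM scaling, a pseudocount of 5, 2 groups in the fit, and without HSC replicate 2 or 3. The row counts entry NM_001285422 on chromosome 2 (109722921 to 109727043), which starts in the 3' part of the gene, so that the upstream first exons of Bdnf are not in it.

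Ntrk2 codes for TrkB, the receptor of that ligand. Its values were 7.01, 4.37 and 4.78 in HSC, 77.0, 40.8 and 17.2 in CCl4-fib, with 62.5, 221 and 136 in NASH-fib. All fibroblast libraries were above all HSC libraries, and the 2 fibroblast groups overlapped. The log2 fold change against HSC was 4.31 ± 0.66 in NASH-fib (limma adjusted p = 0.00146) and 2.63 ± 0.66 in CCl4-fib (limma adjusted p = 0.0134), mean values 25.9 and 8.35 times higher. The CCl4-fib call was lost with the date as a term (adjusted p = 0.0582), without CCl4-fib replicate 1, and without the replicate numbered 2 (adjusted p = 0.0505). Between the fibroblasts the log2 difference was 1.67 (95% interval 0.22 to 3.13, limma adjusted p = 0.125). The counted entry NM_008745 ends at base 58937031 of chromosome 13, and its coding sequence gives 476 residues, the truncated form of TrkB without the kinase. The form with the kinase, NM_001025074, has 821 residues and runs to base 59133970. Reads on exons that both forms use count in this row, those on exons past its end do not, and the forms cannot be told apart in these values.

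The promoter windows of Bdnf and Ntrk2 are shown as those of a ligand and its receptor that were each called higher in both fibroblast groups than in HSC. Within each fibroblast group the libraries ran in opposite order for the ligand and the receptor. The windows lie at chr2:109722671-109722920 (plus) and chr13:58806319-58806568 (plus), with capitals as above.
Bdnf: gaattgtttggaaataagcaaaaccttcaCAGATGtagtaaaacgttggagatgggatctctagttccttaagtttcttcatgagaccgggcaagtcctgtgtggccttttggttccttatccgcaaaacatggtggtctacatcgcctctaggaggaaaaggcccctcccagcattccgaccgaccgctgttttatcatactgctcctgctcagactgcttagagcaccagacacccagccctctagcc
Ntrk2: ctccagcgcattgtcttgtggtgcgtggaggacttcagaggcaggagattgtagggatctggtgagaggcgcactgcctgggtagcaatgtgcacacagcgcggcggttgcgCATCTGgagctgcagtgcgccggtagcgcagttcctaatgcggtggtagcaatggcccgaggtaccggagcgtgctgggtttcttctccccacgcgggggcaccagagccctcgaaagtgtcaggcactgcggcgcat

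Each of these windows held 1 E-box and no other motif of the 6. In Bdnf the E-box began 221 bases and in Ntrk2 138 bases before the start of the counted entry. Other Bdnf entries start upstream, at base 109674700 to 109694469 of chromosome 2, and run through the counted stretch to base 109727007. The Bdnf window need not be the promoter behind the Bdnf values. GC content was 49.2% in Bdnf and 62.8% in Ntrk2. The reference tables used here held such a window for 8 of the 9 genes, with none for Ncam1.

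Ntf3 codes for neurotrophin-3, the preferred ligand of TrkC. It had values of 682, 173 and 640 in HSC, 698, 111 and 90.6 in CCl4-fib, with 260, 1952 and 1274 in NASH-fib. Each group spanned several-fold and all 3 overlapped. No comparison passed, with log2 differences of 1.03 in NASH-fib (95% interval -1.02 to 3.08, limma adjusted p = 0.623) and -1.14 in CCl4-fib (95% interval -3.19 to 0.91, limma adjusted p = 0.380) against HSC, and of 2.17 between the fibroblasts (95% interval 0.12 to 4.22, limma adjusted p = 0.154). Without NASH-fib replicate 1 the last was 3.03 (adjusted p = 0.0662). Within the libraries dated 11-3 in the labels, 1 per group, NASH-fib was below CCl4-fib by 1.42 on the log2 scale, whereas within those dated 11-7 it was above by 4.11. With the date as a term no comparison of Ntf3 passed (limma adjusted p from 0.272 to 0.841).

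Among the other neurotrophin genes, TrkC followed TrkB. Ntrk3, which codes for TrkC, was 11.7, 2.92 and 0 in HSC, 22.2, 34.9 and 40.1 in CCl4-fib, with 114, 126 and 78.6 in NASH-fib. It rose by 4.84 ± 0.81 on the log2 scale in NASH-fib (limma adjusted p = 0.00262) and by 3.14 ± 0.81 in CCl4-fib (limma adjusted p = 0.0161). Its NASH-fib libraries were above all CCl4-fib libraries, a difference that did not pass (1.69 ± 0.81, limma adjusted p = 0.196).

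A further ligand was found in the fibroblasts. Ntf5, which codes for neurotrophin-4, another TrkB ligand, was listed at 0 in all HSC libraries. In CCl4-fib it was 9.52, 11.9 and 29.6, at least 4.45-fold higher than 3 reads per HSC library (limma adjusted p = 0.00208). In NASH-fib it was 4.08, 10.7 and 6.88, at least 1.89-fold higher (limma adjusted p = 0.0187).

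Of the p75 partners, Sort1 codes for sortilin, which binds pro-neurotrophins. It rose by 2.94 ± 0.69 in NASH-fib on the log2 scale (limma adjusted p = 0.0176) and was at 1.58 ± 0.69 in CCl4-fib (limma adjusted p = 0.114). Sorcs2, a sortilin relative, had 2 reads in all of HSC. It was called higher in both, with read ratios scaled for depth of 53.9 in CCl4-fib (95% counting interval 14.7 to 449) and 14.9 in NASH-fib (95% counting interval 3.83 to 128). In all, of 12 neurotrophin ligand and receptor genes 9 were tested, and 6 rose and 1 fell in NASH-fib, while 5 rose and 1 fell in CCl4-fib, 4 of the genes tested being among the 9 of the set. Of all tested genes 8.23% rose in NASH-fib and 16.2% in CCl4-fib, but Bdnf, Ntrk2, Ntrk3, Sorcs2 and Ntf5 passed the filter only through the fibroblasts, so that this count and the median follow in part from the filter. Their median log2 fold change was 2.95 in NASH-fib (2.94 with genes at 0 set to their bound) and 2.63 in CCl4-fib (2.15), beside -0.02 and 0.18 over all genes tested. Between NASH-fib and CCl4-fib limma called 0 of the 9, with 3 higher and 1 lower at an unadjusted p under 0.05, edgeR 1 and DESeq2 4 higher.

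**Figure D2:**
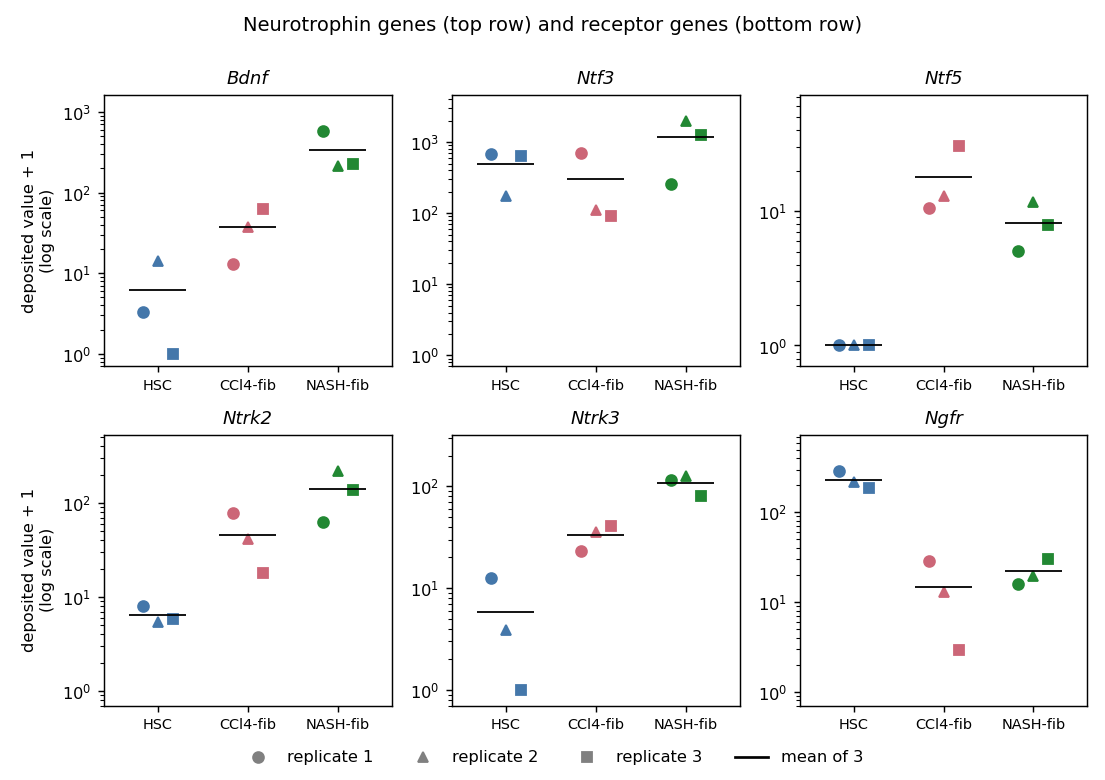
Deposited value + 1 (log axis) of 3 neurotrophin genes (top row) and 3 receptor genes (bottom row) in each library, with a line at the mean of 3, each panel on its own scale. Ntrk2 and Ntrk3 are higher in every fibroblast library than in any HSC library, and Ngfr is lower.

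Downstream of the receptors lie adaptor proteins. Of 15 adaptor genes 14 were tested, with 1 higher in NASH-fib, beside 8.23% of all tested genes, and 2 higher and 1 lower in CCl4-fib, beside 16.2% and 11.7%, at medians of -0.36 and 0.00 on the log2 scale. Shc2, an adaptor of Trk receptors, had no read in HSC and exceeded 3 reads per HSC library at least 8.62-fold in CCl4-fib, while in NASH-fib it was at least 4.41-fold higher. Shc2 passed the filter only through the fibroblasts, so that the counts of adaptor genes called higher follow in part from the filter. Maged1, a p75-binding protein, was 381, 165 and 814 in HSC, 4041, 4643 and 3569 in CCl4-fib, with 136, 1073 and 725 in NASH-fib. It rose by 3.45 ± 0.75 in CCl4-fib (limma adjusted p = 0.00648) and was lower in NASH-fib than in CCl4-fib by a log2 fold change of -3.10 ± 0.75 (limma adjusted p = 0.0287). Gab1, a docking protein of receptor kinases, fell in CCl4-fib (log2 fold change -1.43 ± 0.45, limma adjusted p = 0.0392). Of the 13 genes of the other neurotrophic factors 7 were tested. Gfra4, a receptor of the GDNF family, was the only one called by limma, higher in both fibroblast groups. Of all tested genes 8.23% rose in NASH-fib and 16.2% in CCl4-fib. Gfra4 had a single read in HSC against 67 in NASH-fib and 66 in CCl4-fib, and passed the filter only through the fibroblasts. DESeq2 also called Cntfr, the receptor of ciliary neurotrophic factor, lower in NASH-fib, where limma gave a log2 fold change of -2.55 ± 0.77 (limma adjusted p = 0.0573). Cntfr had 24, 8 and 9 reads in HSC against 0, 5 and 3 in NASH-fib, and passed the filter only through HSC.

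The reelin receptor moved opposite to its ligand. Vldlr, one of the reelin receptors and also a lipoprotein receptor, had values of 1.17, 0 and 1.20 in HSC, 124, 129 and 136 in CCl4-fib, with 336, 211 and 183 in NASH-fib. From 2 reads in HSC, the read ratio scaled for depth was 277 in NASH-fib (95% counting interval 76.4 to 2293) and 154 in CCl4-fib (95% counting interval 42.4 to 1275), with limma adjusted p of 1.67e-05 and 2.86e-05. Lrp8, the other receptor, reached at most 16.0 in any library, and Dab1, the adaptor that both receptors need, at most 7.86. The kinase gene Fyn fell in CCl4-fib (-1.50 ± 0.41, limma adjusted p = 0.0195), as did Crk (-1.49 ± 0.46, limma adjusted p = 0.0340), and Rapgef1 fell in NASH-fib (-2.00 ± 0.49, limma adjusted p = 0.0218). Of 11 reelin pathway genes 9 were tested, Reln included. In NASH-fib 1 was higher and 2 lower, beside 8.23% and 4.3% of all tested genes, at a median of -0.70. In CCl4-fib 1 was higher and 3 lower, beside 16.2% and 11.7%, at a median of -1.09. The gene called higher was Vldlr, which passed the filter only through the fibroblasts. The counts called higher thus follow in part from the filter.

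Ncam1 codes for the neural cell adhesion molecule, a homophilic adhesion protein of neurons, glia and muscle. Its values were 17.5, 69.9 and 34.7 in HSC, 3145, 4583 and 6787 in CCl4-fib, with 821, 886 and 550.4 in NASH-fib. The 3 groups did not overlap. The mean was 119 times higher in CCl4-fib than in HSC (log2 fold change 7.00 ± 0.50, limma adjusted p = 1.67e-05) and 18.5 times higher in NASH-fib (4.36 ± 0.50, limma adjusted p = 0.00027). It was the only one of the 9 genes called between the fibroblasts, 6.43 times lower in NASH-fib than in CCl4-fib (-2.64 ± 0.50, limma adjusted p = 0.0140). In that comparison 4.97% of all tested genes were called higher and 5.66% lower, and for 39.1% the libraries lay fully apart, which held for 3 of the 8 genes, Reln, Bdnf and Ncam1. The median over all tested genes was -0.11 in this comparison and 0.14 with edgeR, and 0.18 and 0.00 in CCl4-fib against HSC. Relative to it, the difference between the fibroblasts was -2.53 for Ncam1, 1.45 for Reln and 3.39 for Bdnf. Within the labelled dates that both groups share, 11-3 and 11-7, Ncam1 was lower in NASH-fib by log2 differences of -1.94 and -3.28. The call of Ncam1 was lost with no filter and without CCl4-fib replicate 2 (adjusted p = 0.0625) or NASH-fib replicate 3 (adjusted p = 0.0562). The antisense gene Gm11149 lies within Ncam1, on chromosome 9 (49502129 to 49799393, minus strand), and strand was not used in counting.

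**Figure D3:**
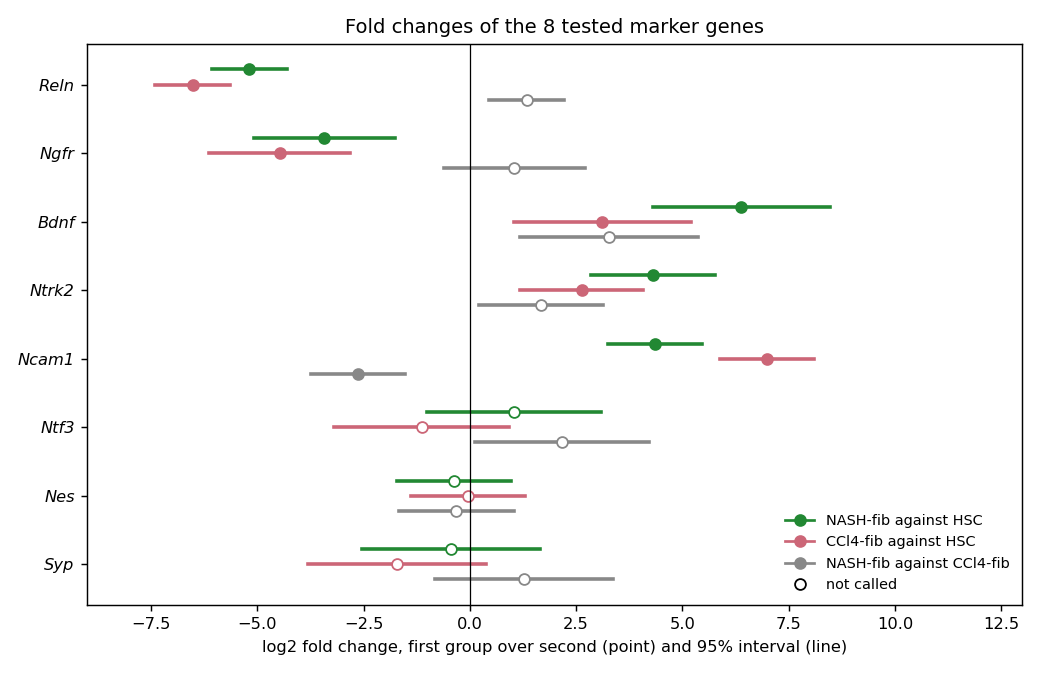
Log2 fold change (point) with its 95% interval (line) for the 8 tested genes in each comparison, with open points for changes that were not called. Reln and Ngfr lie left of 0 and Bdnf, Ntrk2 and Ncam1 right of 0 in both comparisons with HSC, and Ncam1 alone is filled between NASH-fib and CCl4-fib.

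Other neural adhesion genes were also high in CCl4-fib. Chl1, a close homolog of L1, was 0, 1.46 and 2.39 in HSC, 529, 560.5 and 596 in CCl4-fib, with 14.95, 6.23 and 1.97 in NASH-fib. It was lower in NASH-fib than in CCl4-fib by a log2 fold change of -6.33 ± 0.71 (limma adjusted p = 0.00421). Nfasc, the axonal adhesion protein neurofascin, was likewise lower in NASH-fib (-3.54 ± 0.82, limma adjusted p = 0.0257), with values of 128, 72.3 and 97.3 in CCl4-fib, with 1.36, 12.5 and 17.7 in NASH-fib. Cntn1, which codes for contactin-1, was 35.7, 11.1 and 23.9 in CCl4-fib, 0 in every HSC library and 1.36, 0 and 0 in NASH-fib (limma adjusted p = 0.0143 between the fibroblasts).

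Not all genes of this kind followed Ncam1. Cadm1, an adhesion protein of synapses and epithelia, was 124, 323 and 176 in HSC, 47.6, 34.9 and 12.4 in CCl4-fib, with 416, 217 and 258.5 in NASH-fib. It fell in CCl4-fib (-2.75 ± 0.56, limma adjusted p = 0.00463) and was higher in NASH-fib than in CCl4-fib (3.33 ± 0.56, limma adjusted p = 0.0107). Cdh2, N-cadherin, fell in both against HSC (-2.81 ± 0.44 in NASH-fib and -2.04 ± 0.44 in CCl4-fib). Alcam, an adhesion molecule of the immunoglobulin family, rose in both (2.40 ± 0.58 and 2.09 ± 0.58).

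St8sia4, one of the enzymes that add polysialic acid to NCAM, had no read in CCl4-fib, where Ncam1 was highest. Its values were 28.1, 4.37 and 3.59 in HSC, 0 in every CCl4-fib library and 13.6, 7.13 and 12.8 in NASH-fib. It was called lower in CCl4-fib than in HSC (limma adjusted p = 0.0168), which rested on HSC replicate 1 (adjusted p = 0.0653 without it), the other HSC libraries holding 3 reads each. It was at least 4.30-fold higher in NASH-fib than in CCl4-fib (limma adjusted p = 0.0256), and NASH-fib differed from HSC by 0.40 on the log2 scale (limma adjusted p = 0.878). Of the 16 adhesion and polysialylation genes 9 were tested, Ncam1 included. Between NASH-fib and CCl4-fib 2 were called higher and 4 lower, beside 4.97% and 5.66% of all tested genes. The median log2 fold change was -0.96 beside -0.11 over all tested genes. Against HSC 5 rose and 3 fell in CCl4-fib, beside 16.2% and 11.7%, at a median of 2.09. In NASH-fib 2 rose and 1 fell, beside 8.23% and 4.3%, at a median of 0.57. Chl1, Nfasc and Cntn1 had at most 3 reads in all of HSC and passed the filter only through the fibroblasts. These counts and medians thus follow in part from the filter.

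**Figure D4:**
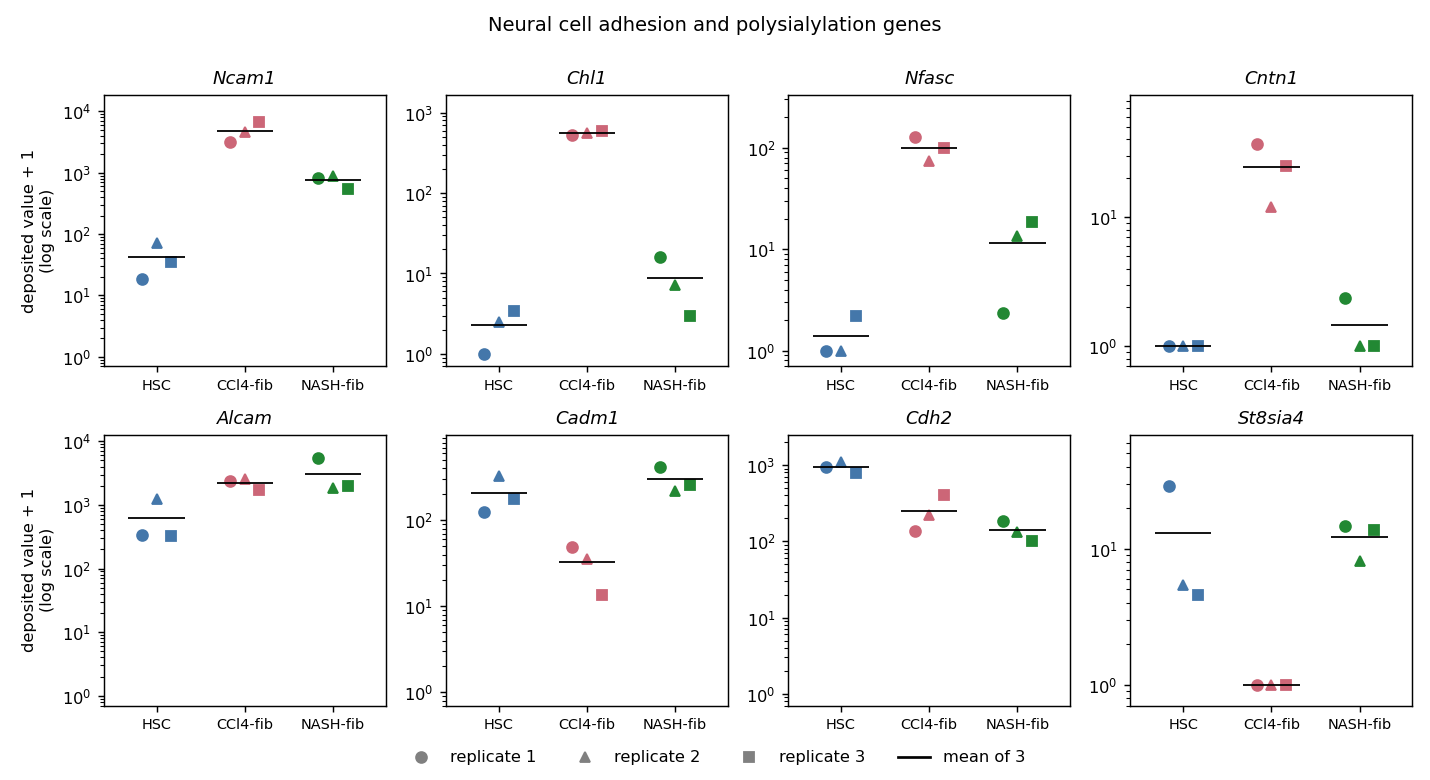
Deposited value + 1 (log axis) of 8 neural adhesion and polysialylation genes in each library, with a line at the mean of 3. Ncam1, Chl1, Nfasc and Cntn1 are highest in CCl4-fib, whereas Cadm1 and St8sia4 are lowest there.

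Nes codes for nestin, an intermediate filament of neural progenitors. It was 166, 42.2 and 127 in HSC, 91.3, 87.6 and 101 in CCl4-fib, with 38.1, 149.6 and 71.8 in NASH-fib. All groups overlapped and no difference was detectable, with log2 differences of -0.37 in NASH-fib (95% interval -1.72 to 0.98) and -0.05 in CCl4-fib (95% interval -1.40 to 1.30). Other filament genes did rise. Vim, the mesenchymal filament vimentin, rose by 1.50 ± 0.32 in NASH-fib and 1.60 ± 0.32 in CCl4-fib, and Synm, which codes for synemin, by 2.50 ± 0.54 and 1.62 ± 0.54. Prph, peripherin, a filament of peripheral neurons, rose in NASH-fib (4.82 ± 1.06, limma adjusted p = 0.0121), with values of 46.2, 266 and 183, and had 63.5, 27.2 and 1.91 in CCl4-fib without passing. Of 11 filament genes 6 were tested. In NASH-fib 3 rose, beside 8.23% of all tested genes, and in CCl4-fib 2, beside 16.2%. The medians were 1.32 and 1.54, beside -0.02 and 0.18 over all tested genes. Prph passed the filter only through the fibroblasts.

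Syp codes for synaptophysin, a protein of synaptic vesicles. Its values were 44.4, 8.74 and 22.7 in HSC, 6.35, 9.36 and 2.86 in CCl4-fib, with 2.72, 26.7 and 39.3 in NASH-fib. It was below the other groups on average in CCl4-fib, but the libraries overlapped and the log2 difference from HSC was -1.72 (95% interval -3.82 to 0.38, limma adjusted p = 0.201). Of the 25 genes of the synaptic vesicle and its release 15 were tested, with 3 called higher in NASH-fib, beside 8.23% of all tested genes, and 4 in CCl4-fib, beside 16.2%. By limma 0 were called lower in either, with 1 each at an unadjusted p under 0.05, and edgeR and DESeq2 called 1 lower in CCl4-fib and 0 in NASH-fib. Sv2a, a vesicle glycoprotein, and Dnm1, the neuronal dynamin of vesicle retrieval, were at 0 in all HSC libraries. Sv2a was at least 18.1-fold and Dnm1 at least 13.1-fold higher in CCl4-fib, and in NASH-fib they were at least 7.54-fold and at least 7.64-fold higher. Sypl, a widely expressed relative of Syp, rose in NASH-fib (1.03 ± 0.28, limma adjusted p = 0.0335), with values of 2874, 2472 and 2397 against 1337, 1123 and 1333 in HSC. Synpr, synaptoporin, was 31.8, 21.3 and 25.8 in CCl4-fib and 0 in HSC, and Syngr1, synaptogyrin, was also called higher there. Syt1, the calcium sensor of release, was higher in NASH-fib than in CCl4-fib (3.40 ± 0.89, limma adjusted p = 0.0372). It had 15, 60 and 17 reads in NASH-fib against 5, 3 and 0 in CCl4-fib, and passed the filter only through NASH-fib. The list median was 0.77 in NASH-fib against HSC (0.20 with genes at 0 set to their bound) and 0.18 in CCl4-fib. Sv2a, Dnm1, Synpr and Syngr1 had no read in HSC and passed the filter only through the fibroblasts. The counts of vesicle genes called higher and the medians thus follow in part from the filter.

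Of the 47 limma calls of the related neurotrophin, reelin, filament, adhesion and vesicle genes, 25 held with each of the 9 libraries left out in turn. Those that were lost at least once were Sort1, Sorcs2, Ntf5, Rapgef1, Alcam, Synm, Prph and Sypl in NASH-fib, and Ntrk3, Gab1, Fyn, Crk, Alcam, St8sia4, Synm and Syngr1 in CCl4-fib. Between the fibroblasts the calls of Chl1 and Cadm1 held throughout, and those of Cntn1, Nfasc, Maged1, St8sia4, Syt1 and Synpr did not. The adjusted p reached 0.179 for Synm in CCl4-fib, and the Sypl call in NASH-fib was lost without any 1 of the libraries (adjusted p at most 0.0857).

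Over the 9 libraries, the tested genes with the pattern most like that of each of the 8 were found by Pearson's r of log2(value + 1), as a description over points that share a group. Reln was most like Sucnr1 (r = 0.990), the succinate receptor, Bmp5 (0.987) and Prkcq (0.987), and Ngfr most like Zbtb39 (0.983), Mapk12 (0.981) and Vipr1 (0.976). Ncam1 was closest to Tspan5 (0.992), Col5a2 (0.991), a fibrillar collagen, and Wt1 (0.990), a transcription factor of mesothelium. For Bdnf these were Kif13a (0.987), Lmo7 (0.973) and Basp1 (0.973), and for Ntrk2 C7 (0.982), Scg5 (0.979) and Oprl1 (0.979). Nes was most like Amotl1 (0.982), Cdk16 (0.971) and Ubac1 (0.970), Ntf3 most like Epha3 (0.979), Txndc16 (0.977) and Pkp4 (0.956), and Syp most like 6030458C11Rik (0.958), Cds2 (0.950) and Pan2 (0.936). Among the 8 themselves Reln and Ngfr had the highest r (0.90), followed by Bdnf and Ntrk2 (0.77), and Reln and Ncam1 the lowest (-0.96). Bdnf and Ntrk2 were in opposite order within each fibroblast group, so that their r follows the difference between the groups.

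Markers of other cells differed between the groups as well. The summed value of 10 smooth muscle and mural cell markers was 74.3 to 199 in HSC, 3325 to 16885 in CCl4-fib and 7511 to 27043 in NASH-fib, and 1 of the 10, Casq2, was at 0 in HSC. In the 6 fibroblast libraries Ntrk2 and Ntf3 were each highest in the library with the highest such sum, NASH-fib replicate 2, and lowest in CCl4-fib replicate 3, whose sum of 3520 was close to the lowest. Ncam1 did not show this order, since NASH-fib replicate 2 had the highest sum and a Ncam1 value below every CCl4-fib library. In HSC, where this sum was at most 199, Ntf3 was 682, 173 and 640 and Ntrk2 was 7.01, 4.37 and 4.78. The part of mural cells in the Ntrk2 and Ntf3 values was not tested.

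**Figure D5:**
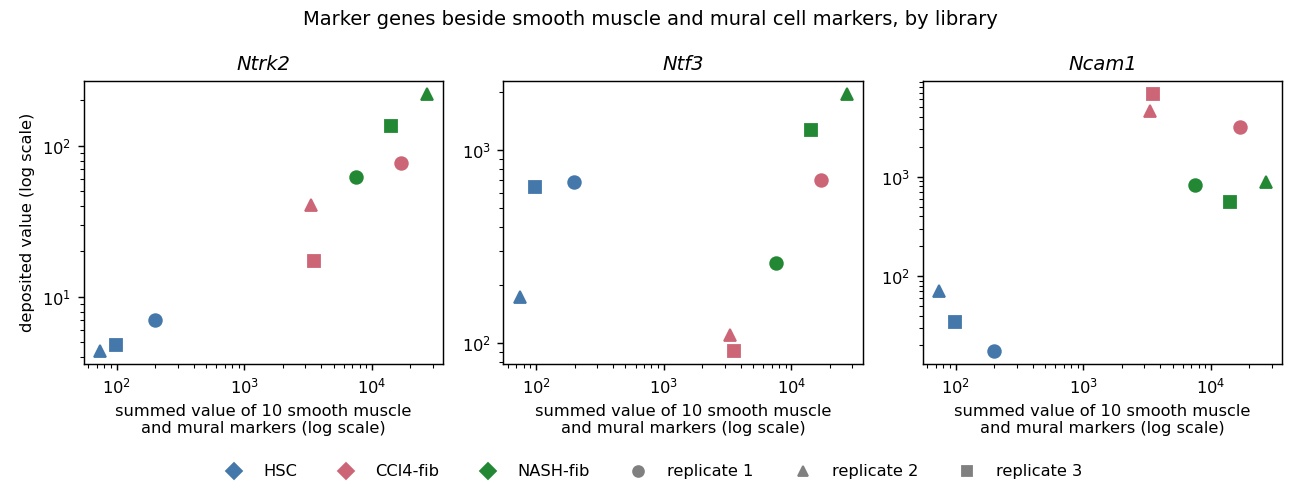
Deposited values of Ntrk2, Ntf3 and Ncam1 (log axis) against the summed value of 10 smooth muscle and mural cell markers (log axis), 1 point per library. Ntrk2 is highest in NASH-fib replicate 2, at 221, where the marker sum is 27043, whereas Ncam1 is 886 there.

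Mesothelial markers, of which 8 of 9 were in the file, summed to 706 to 1018 in HSC, 16354 to 22601 in CCl4-fib and 25551 to 32267 in NASH-fib. Within the list Wt1 was lower in NASH-fib than in CCl4-fib (-1.67 ± 0.36, limma adjusted p = 0.0215), while Gpm6a, a membrane glycoprotein, was at 1.13 ± 0.34 (limma adjusted p = 0.0604). The part of mesothelial cells in the Ncam1 values was not tested. The 10 portal fibroblast markers summed to 217 to 252 in HSC, 15821 to 19182 in CCl4-fib and 6755 to 14976 in NASH-fib, and their part in the Ncam1 and Chl1 values was not tested. The defining Schwann cell genes Sox10 and Foxd3 had no read in any library, so the 10 Schwann cell markers, summing to 21.9 to 42.1 in HSC, 211 to 228 in CCl4-fib and 113 to 193 in NASH-fib, were carried by others of the list. Neuron markers summed to 27.7 to 115, 162 to 286 and 150 to 223 in the same order, with Elavl4 and Chat at 0 in all groups. Of 3 tested, Stmn2 rose in NASH-fib (3.34 ± 0.67) and CCl4-fib (3.07 ± 0.67), and Rbfox3 fell (-4.33 ± 0.97 and -3.71 ± 0.97). Tubb3, at 0 in HSC, was called against HSC only in CCl4-fib, at least 10.0-fold higher. The part of Schwann cells and neurons in the values of the 9 genes was not tested.

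The 15 quiescent stellate cell markers summed to 71509 to 100831 in HSC, 21254 to 33361 in CCl4-fib and 32088 to 50637 in NASH-fib. The fall of Reln and Ngfr thus came beside a fall of this list. Of its 15 genes 8 were called lower in CCl4-fib and 10 in NASH-fib, beside 11.7% and 4.3% of all tested genes. The HSC libraries also held more of the 11 sinusoidal endothelial markers (8701 to 17601) than CCl4-fib (321 to 394) and NASH-fib (1390 to 4390). The 15 hepatocyte markers summed to 27438 to 51607 in HSC, 2815 to 4457 in CCl4-fib and 10173 to 38281 in NASH-fib, and the 12 macrophage markers in the file to 3947 to 14078, 280.2 to 465 and 805 to 2799. The part of these cells in the values of the 9 genes was not tested. Neutrophil markers were highest in NASH-fib replicate 2, at 6430, and lymphocyte markers at most 329 in any library, and cholangiocyte markers ran from 52.6 to 105 in HSC and from 1735 to 3418 in the fibroblasts. The 9 activated fibroblast markers summed to 6923 to 12223 in HSC, 51937 to 58874 in CCl4-fib and 34811 to 39787 in NASH-fib.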

How the data were processed

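The libraries were single-end and made from SMARTer-amplified RNA. The submitters' processing notes name CASAVA and STAR and the build mm10. Per the file headers, HOMER counted reads on RefSeq exons regardless of strand, keeping at most 3 per position and condensing each gene to 1 entry. The deposited values are a signal, those counts times 1 factor per library, normalized by the authors over 10 libraries, of which 9 are columns of the file (0 columns of values were left unused). Read numbers were recovered with that factor, and 100% of values were whole within 0.011.

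The 9 genes and all lists were chosen with earlier results of these data known. Because the values were not counts, limma 3.58.1 (R 4.3.3) was run on log2(value + 1) with a trend over all 9 libraries, for the 13651 genes that filterByExpr kept on recovered reads (minimum count 10). The log2 scale understates changes of low genes. The script was tested on simulated data. Alternatives were edgeR 4.0.16, DESeq2 1.42.0, TMM scaling, no filter, an average RPKM over 100, other pseudocounts, 2 groups in the fit, a replicate block, the date in the labels as a term, and each library left out. Labels give replicate numbers and dates whose meaning is not stated. Named were the 9 genes, called genes of the lists, and the 3 tested genes most like each. Lrp8, Dab1 and single marker genes were named after their values were seen. Some genes of the lists are counted but not reported here by name. Counting intervals (exact binomial) and the floor of 3 reads cover counting error only.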

Additional observations from a re-analysis of the deposited data

How the results depend on the processing

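Of the 434 repeats of the log2 fold changes of the 8 tested genes, 397 kept their direction and call, 17 lost the call, 11 gained it and 9 changed sign. The sign changes were all of Nes and Syp, which were never called. Nes against HSC was 0.15 in CCl4-fib with the date as a term, and 0.022 between the fibroblasts with edgeR. With single libraries left out, Nes ran from -0.95 to 0.10 in NASH-fib and from -0.63 to 0.34 in CCl4-fib against HSC, and from -0.82 to 0.15 between the fibroblasts, while Syp ran from -1.11 to 0.61 in NASH-fib against HSC.

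The number of the 9 genes called in NASH-fib against HSC was 5, and 4 with no filter and with the date as a term, and ran from 4 (without HSC replicate 1) to 6 with libraries left out. The number called in CCl4-fib against HSC was 5, and 3 with the date as a term, and ran from 3 (without CCl4-fib replicate 2) to 6 (without HSC replicate 2 or NASH-fib replicate 1) with libraries left out. Between the fibroblasts it was 1, but 2 with edgeR, with a pseudocount of 5, with 2 groups in the fit and with the date as a term, 3 with TMM scaling and 4 with DESeq2, all including Ncam1. It was 0 with no filter, and ran from 0 (without CCl4-fib replicate 2 or NASH-fib replicate 3) to 2 (without HSC replicate 2 or 3) with libraries left out. An average RPKM over 100 left 1 of the 9 genes to test and called 0 in every comparison. The cause of the other changes was not tested. Of all genes, limma called 678 higher and 773 lower between the fibroblasts and edgeR 802 and 563. Calls in the related lists stayed within 1.5 times in 314 of 387 repeats.

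Samples with the same replicate number did not vary together (correlations of their deviations from -0.47 to 0.51). The highest correlation, 0.65, was between HSC replicate 2 and NASH-fib replicate 1, which carry the date 11-3 in the labels and stand apart from their groups. CCl4-fib replicate 1 carries the same date, and its correlations were -0.07 with HSC replicate 2 and -0.13 with NASH-fib replicate 1. With the replicate block the genes called numbered 5, 4 and 1, Bdnf in CCl4-fib being lost (adjusted p = 0.0539). Depth limits Gfap, Syp and the HSC levels of Bdnf and Ntrk2, which rest on few reads.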
